A study of Arabidopsis thaliana with 12 samples.

Results

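The AGAMOUS-like genes are members of the MADS-box family of transcription factors. The 7 described here are AGL16 (AT3G57230), AGL18 (AT3G57390), AGL57 (AT3G04100), AGL62 (AT5G60440), AGL48 (AT2G40210), AGL80 (AT5G48670) and AGL87 (AT1G22590). They were taken by symbol, each from the 1 probe set matched to that gene alone, so 7 of the 22746 non-control probe sets of the array are described. RNA of young Arabidopsis thaliana embryos (Col-0) was hybridised to 12 Affymetrix ATH1 arrays in 4 groups of 3. Suspensor nuclei, proembryo nuclei and, as the group they are set against, whole-embryo nuclei were taken at 2 to 16 cells from ovules fixed in 0.1% paraformaldehyde, released with a plant nuclei kit and sorted by flow cytometry through marker lines of each tissue. The fourth group is cellular RNA from unfixed whole embryos of 8 to 32 cells that had been squeezed from the ovule and washed. All plants grew in 16 h of light and 8 h of dark. The marker lines are not named in the labels, nor are the promoters that drive them. The replicates are called biological with no word on separate plants or sorts, so p-values rest on the spread between these arrays, which may in part be technical. The tests moderated each gene's spread towards that of probe sets of like intensity. A standard error thus need not follow the gene's own SDs.

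MADS-box proteins bind DNA as dimers. Type II members carry a keratin-like dimerisation domain beside the MADS domain and include the regulators of flowering time and floral organs. Type I members, split into alpha and gamma groups among others, are known mainly from the female gametophyte and the endosperm, the nourishing tissue beside the embryo, where alpha and gamma proteins pair with each other. AGL16 and AGL18 are type II, AGL57 and AGL62 are type I alpha, and AGL48, AGL80 and AGL87 are type I gamma.

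The array values are intensities on a linear scale, and as deposited they have a common trimmed mean. A probe set was called above the middle of its array if it exceeded the median of all probe sets there, which lay between 72.7 and 103 intensity units. AGL16 and AGL18 were above it on 12 of 12 arrays and AGL80 on 11. AGL57 and AGL48 were above it on 6 arrays, AGL62 on 5 and AGL87 on 3. Of the 22746 probe sets, 30.8% were above it on every array, 59.2% on 3 or more and 28.7% on 0 arrays. Among the 35 probe sets of 33 other MADS-box genes, 25 (71.4%) were above it on 0 arrays, and 2 (5.71%) on 3 or more. These 2 were AGL61 and 1 of the 2 probe sets of AGL26, whose other probe set was above it on 0. The other genes were listed by symbol, and whether AGL26 here is a MADS-box gene was not checked. The 7 genes, all above it on 3 or more arrays, were chosen with earlier results of these data known. Their standing beside the other MADS-box genes cannot be told apart from that choice.

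**Figure D1:**
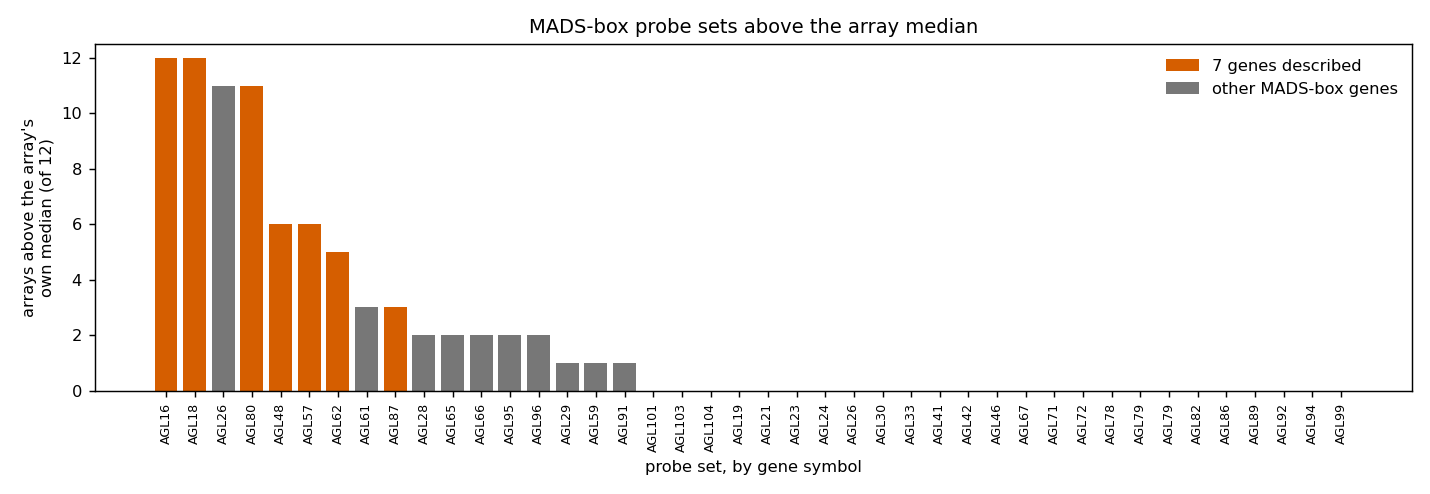
Number of arrays, of 12, on which each MADS-box probe set lay above the median of all probe sets of that array. Bars in orange are the 7 genes described and grey bars are 35 probe sets of other MADS-box genes, of which 25 stood at 0. The 7 genes were chosen with earlier results of these data known.

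The type II genes were above the array median on every array of every group. AGL16 represses flowering, acts in the development of stomatal complexes and is a microRNA target. Its intensity was 446.9, 395.5 and 498.3 in suspensor nuclei, 403.1, 384.7 and 602.2 in proembryo nuclei, 664.3, 361.1 and 370.8 in whole-embryo cells, and 299.0, 361.1 and 914.0 in whole-embryo nuclei. All groups overlapped, and the lowest and the highest value both came from whole-embryo nuclei. The group means on the log2(intensity + 16) scale lay between 8.85 and 8.91, from 8.85 ± 0.161 in suspensor nuclei, 8.88 ± 0.344 in proembryo nuclei and 8.86 ± 0.481 in whole-embryo cells to 8.91 ± 0.837 in whole-embryo nuclei (SD, n = 3 each). No neighbouring groups in that order differed beyond their spread. An F test of limma over the 4 groups gave an adjusted p of 0.999.

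AGL18 also represses flowering, and together with its relative AGL15 it promotes the formation of somatic embryos. Its intensity was 472.4, 363.9 and 384.8 in suspensor nuclei, 438.7, 319.8 and 755.1 in proembryo nuclei, 314.0, 293.6 and 170.8 in whole-embryo cells, and 500.8, 474.9 and 608.6 in whole-embryo nuclei. The 3 cell arrays were the lowest of all 12, with a highest value of 314.0 against a lowest value of 319.8 over the 9 arrays of nuclei. From low to high, the mean log2 level was 8.06 ± 0.45 in whole-embryo cells, 8.72 ± 0.191 in suspensor nuclei, 8.94 ± 0.607 in proembryo nuclei and 9.08 ± 0.183 in whole-embryo nuclei (SD, n = 3 each). Of these neighbours, the arrays of whole-embryo cells and suspensor nuclei did not overlap, and the others did. The F test over the 4 groups did not pass (limma adjusted p = 0.111).

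AGL57 is a type I gene of the alpha group, and its level varied the most of the 7 on the log2 scale, over a range of 4.14 log2 units across the arrays. Its intensity was 20.9, 18.0 and 169.6 in suspensor nuclei, 6.4, 45.9 and 100.8 in proembryo nuclei, 378.0, 374.0 and 146.4 in whole-embryo cells, and 45.7, 110.2 and 62.9 in whole-embryo nuclei. Each group of nuclei had 1 array above the array median, while all 3 cell arrays were above it. Cell replicates 1 and 2 stood above every array of nuclei, and cell replicate 3 (146.4) stood below suspensor replicate 3 (169.6). By mean log2 level the order was whole-embryo cells (8.19 ± 0.734), whole-embryo nuclei (6.41 ± 0.525), suspensor nuclei (5.94 ± 1.38) and proembryo nuclei (5.77 ± 1.20; SD, n = 3 each), and only cells and whole-embryo nuclei, among neighbours, did not overlap. AGL57 was the 1 of 7 genes past the threshold of 0.05 in the F test over the 4 groups (limma adjusted p = 0.0472), where 11.6% of 13473 probe sets passed. The call rested on most single arrays: it held without proembryo replicate 3 (adjusted p = 0.0306) and suspensor replicate 3 (0.0117), stood at 0.05 without cell replicate 3, and was lost without any one of the other 9, at 0.0573 to 0.23.

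AGL62 keeps the early endosperm syncytial, delaying its division into cells, and is a widely used marker of that tissue. Its intensity was 62.9, 115.8 and 124.6 in suspensor nuclei, 45.1, 29.6 and 114.8 in proembryo nuclei, 76.3, 63.3 and 74.8 in whole-embryo cells, and 25.5, 35.5 and 79.9 in whole-embryo nuclei. It was above the array median on 2 suspensor, 1 proembryo and 2 cell arrays and on 0 arrays of whole-embryo nuclei. The order by mean log2 level was suspensor nuclei (6.83 ± 0.457), whole-embryo cells (6.45 ± 0.12), proembryo nuclei (6.16 ± 0.784) and whole-embryo nuclei (5.88 ± 0.628; SD, n = 3 each), with overlap between all neighbours.

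AGL80 is needed for the development of the central cell, from which the endosperm arises, and pairs with the alpha-group protein AGL61. Its intensity was 156.1, 172.9 and 115.5 in suspensor nuclei, 124.2, 166.8 and 25.3 in proembryo nuclei, 171.3, 165.6 and 162.1 in whole-embryo cells, and 134.3, 124.9 and 139.8 in whole-embryo nuclei. Proembryo replicate 3 was the 1 array of 12 below its median, and it stood apart from the other 11, which lay between 115.5 and 172.9. The order by mean log2 level was whole-embryo cells (7.51 ± 0.0367), suspensor nuclei (7.34 ± 0.272), whole-embryo nuclei (7.22 ± 0.0734) and proembryo nuclei (6.67 ± 1.14; SD, n = 3 each), with overlap between all neighbours.

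The other gamma-group genes are AGL48, above the array median on 6 of 12 arrays, and AGL87, above it on 3. AGL48 had an intensity of 72.9, 73.4 and 50.6 in suspensor nuclei, 21.6, 148.3 and 89.4 in proembryo nuclei, 100, 51.8 and 85.0 in whole-embryo cells, and 66.7, 97.0 and 144.5 in whole-embryo nuclei. AGL87 had an intensity of 36.7, 74.6 and 47.1 in suspensor nuclei, 22.2, 7.4 and 45.7 in proembryo nuclei, 83.9, 89.4 and 46.9 in whole-embryo cells, and 107.1, 49.2 and 14.2 in whole-embryo nuclei. Neighbouring groups overlapped for both genes. By mean log2 level AGL48 was lowest in suspensor nuclei (6.34 ± 0.242), then at 6.44 ± 1.09 in proembryo nuclei and 6.53 ± 0.402 in whole-embryo cells, and highest in whole-embryo nuclei (6.84 ± 0.479; SD, n = 3 each). AGL87 was highest in whole-embryo cells (6.45 ± 0.41), then at 6.07 ± 0.398 in suspensor nuclei and 5.96 ± 1.02 in whole-embryo nuclei, and lowest in proembryo nuclei (5.25 ± 0.699; SD, n = 3 each). In the F test over the 4 groups AGL48 had a limma adjusted p of 0.847, AGL80 of 0.448, and AGL62 and AGL87 of 0.475 each.

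**Figure D2:**
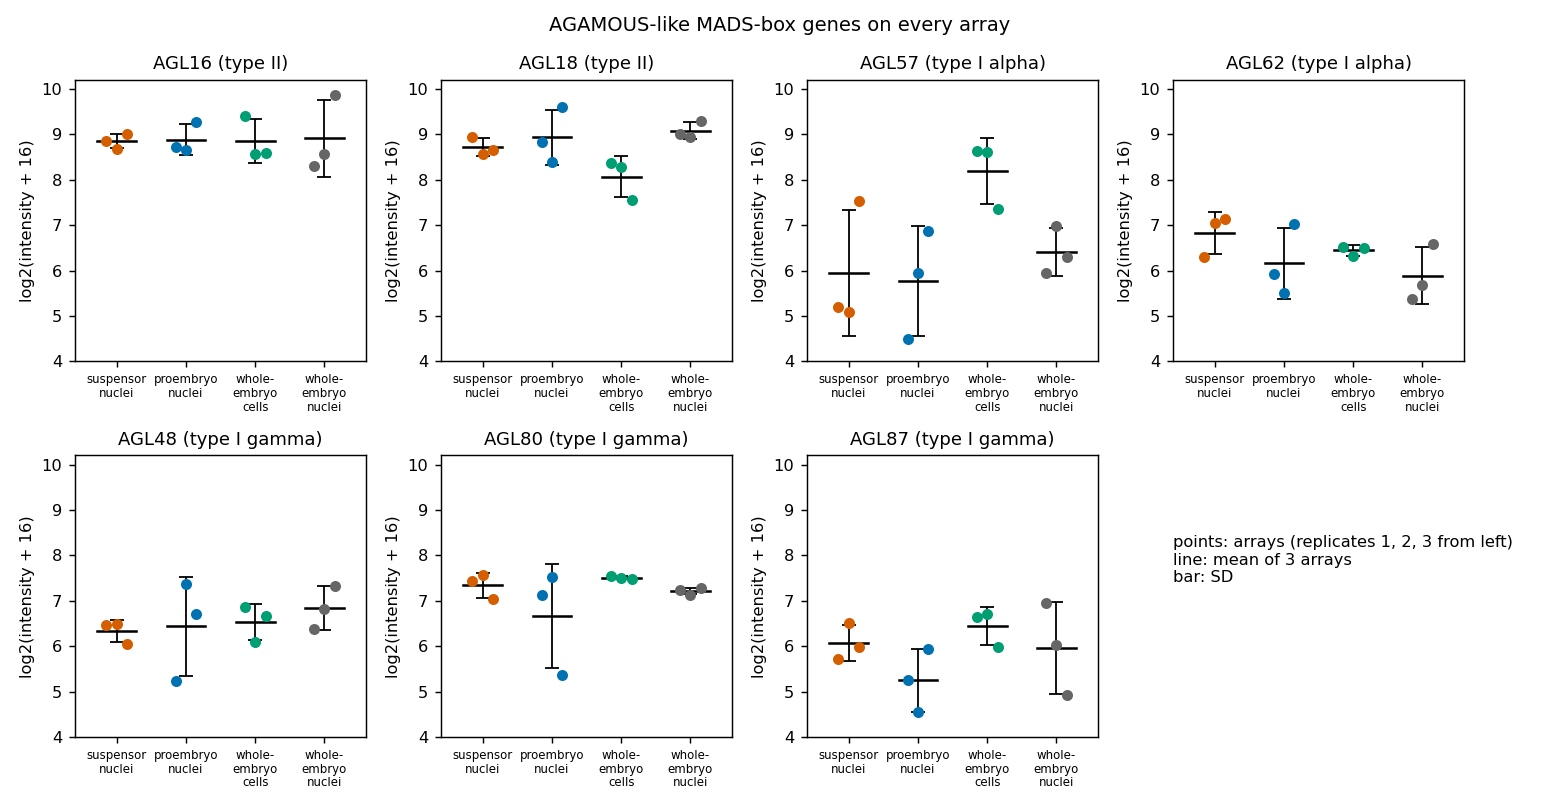
Level of each of the 7 genes as log2(intensity + 16), 1 panel per gene, with the 12 arrays in 4 groups of 3; points are arrays, horizontal lines are means and bars are SD. The cell arrays are the highest group for AGL57 (146.4 to 378.0 intensity units) and the lowest for AGL18 (170.8 to 314.0). Probe sets differ in brightness, so heights are compared within a panel only.

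The comparison of suspensor with proembryo nuclei asks which transcripts separate the lineage that anchors the embryo from the one that forms most of the plant. Of the 7 genes, 6 passed the filter on low values (above the array median on at least 3 of the 9 arrays of nuclei), and 0 of these 6 were past the threshold, where 2.03% of 12786 probe sets were. AGL62 stood at 0.67 log2 units, suspensor minus proembryo (SE 0.565, 95% interval -0.52 to 1.86, n = 3 and 3, limma adjusted p = 0.599). Without proembryo replicate 2 AGL62 stood at 0.34, and it passed the filter with exactly 3 arrays. AGL80 also stood at 0.67 (SE 0.451, interval -0.28 to 1.62), and by 0.02 without proembryo replicate 3. AGL57 stood at 0.18 (interval -1.44 to 1.79), AGL16 at -0.03 (-0.75 to 0.70), AGL48 at -0.10 (-1.21 to 1.01) and AGL18 at -0.22 (-0.84 to 0.40). The intervals of AGL16 and AGL18 leave out a change of 1 log2 unit in either direction, and those of the type I genes do not. The groups overlapped for all 7 genes. Over all probe sets tested the groups did not overlap for 19.3%. AGL87, left out by the filter, averaged 6.07 ± 0.398 in suspensor nuclei and 5.25 ± 0.699 in proembryo nuclei (log2 level, SD, n = 3 each). An actin measure of RNA integrity, the 3′ over the 5′ probe set, was 3.48 ± 0.249 log2 units in suspensor nuclei, against 4.41 ± 0.111 in proembryo nuclei (SD, n = 3 each), without overlap, and its part in these values was not tested. The signal of the hybridisation controls, RNAs added to each hybridisation, ran from 11.407 to 13.885 log2 units on suspensor arrays, highest on replicate 3. On proembryo arrays it ran from 11.674 to 12.653. In such mixed material, fewer cells of a type and less RNA per cell cannot be told apart.

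A further comparison took whole-embryo nuclei, in which the 2 lineages are mixed, as the baseline for suspensor nuclei. Again 0 of 6 genes passed, where 1.56% of 12786 probe sets did. AGL62 had the largest difference among the 6, 0.95 log2 units higher in suspensor nuclei (SE 0.565, interval -0.24 to 2.13, limma adjusted p = 0.476). It passed the filter with 2 suspensor arrays, 1 proembryo array and 0 arrays of whole-embryo nuclei above the array median. With only the arrays compared in the fit, AGL62 was left out by the filter. The actin measure did not overlap between these groups either, at 3.48 ± 0.249 log2 units in suspensor nuclei, against 4.34 ± 0.288 in whole-embryo nuclei (SD, n = 3 each). AGL18 stood at -0.36 (SE 0.296, interval -0.99 to 0.26, adjusted p = 0.624 by limma), and its arrays did not overlap between the groups: 472.4 was the highest in suspensor nuclei and 474.9 the lowest in whole-embryo nuclei. It was the 1 of 6 genes without overlap, against 18.9% of all probe sets tested. AGL48 stood at -0.50 (interval -1.61 to 0.61), AGL57 at -0.47 (-2.08 to 1.15), AGL80 at 0.12 (-0.83 to 1.07) and AGL16 at -0.06 (-0.78 to 0.67).

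Between proembryo and whole-embryo nuclei the limma count was 0 of 6 genes past the threshold and 0 (0%) of 12786 probe sets. At an unadjusted p under 0.05 it was 0 of the 6 genes and 3.14% of the probe sets, and the groups did not overlap for 0 of the 6 genes and 8.24% of the probe sets. AGL57 stood at -0.64 log2 units (SE 0.769, interval -2.26 to 0.98), AGL80 at -0.55 (-1.50 to 0.40), AGL48 at -0.40 (-1.51 to 0.71), AGL62 at 0.28 (-0.91 to 1.47), AGL18 at -0.14 (-0.77 to 0.48) and AGL16 at -0.03 (-0.76 to 0.70). Without proembryo replicate 3 AGL80 stood at 0.10. The 3 comparisons of nuclei share their arrays, and over their 18 tests of these genes the lowest unadjusted p was 0.112, for AGL62 in suspensor against whole-embryo nuclei.

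Whole-embryo cells were compared with whole-embryo nuclei. The cells are also from older embryos, unfixed and extracted with another kit, and these differences cannot be told apart from the one between cellular and nuclear RNA. AGL57 was 3.44-fold higher in cells, by 1.78 log2 units (SE 0.396, interval 0.91 to 2.65, n = 3 and 3, limma adjusted p = 0.0233). It was the 1 of 6 genes that passed, where 6.77% of 11866 probe sets passed. It passed the filter on low values with all 3 cell arrays above the array median against 1 array of whole-embryo nuclei. The adjusted p was 0.12 without cell replicate 2, 0.108 and 0.106 without whole-embryo nuclei replicates 1 and 3, 0.0643 without the filter, 0.105 with all 12 arrays in the fit, and from 0.00209 to 0.445 over all settings tried. The difference lay between 1.19 and 2.21 log2 units in all of them.

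AGL18 was lower in cells by a difference of -1.02 log2 units (SE 0.286, interval -1.64 to -0.39, n = 3 and 3). Its limma adjusted p of 0.0558 was just outside the threshold, with an unadjusted p of 0.00416. AGL18 and AGL57 were the 2 of 6 genes with an unadjusted p under 0.05, a level that 23.9% of the probe sets tested reached. It passed with a pseudocount of 64 (adjusted p = 0.0467), after quantile normalization (0.0492) and without cell replicate 1 (0.0292), and over all settings the adjusted p ran from 0.0292 to 0.436 and the difference from -1.17 to -0.76. AGL80 stood 0.29 log2 units higher in cells (SE 0.248, interval -0.25 to 0.84, limma adjusted p = 0.507), with no overlap between its arrays, which lay between 162.1 and 171.3 in cells and between 124.9 and 139.8 in whole-embryo nuclei. With AGL57 and AGL18 it made 3 of 6 genes whose groups did not overlap, against 28.6% of all probe sets tested.

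AGL16 stood at -0.05 log2 units in cells against nuclei (interval -0.94 to 0.83), AGL48 at -0.31 (-1.13 to 0.52) and AGL87 at 0.48 (-0.70 to 1.67), none past the threshold. AGL62, left out by the filter in this fit, had 63.3 to 76.3 intensity units in cells and 25.5 to 79.9 in whole-embryo nuclei, which overlap. The signal of the hybridisation controls, RNAs added to each hybridisation, averaged 11.66 ± 0.147 log2 units on the cell arrays (SD, n = 3), against 12.37 ± 0.558 on those of whole-embryo nuclei (SD, n = 3). The groups did not overlap in it, by a narrow margin: 11.83 was the highest in cells and 11.84 the lowest in nuclei. With that level as a covariate AGL57 stood at 1.19 (adjusted p = 0.445) and AGL18 at -0.95 (0.436). Over all probe sets 8 passed with the covariate, where 803 had passed without it. Control level and group cannot be told apart here. The 3′ probe set of actin exceeded its 5′ probe set by 4.55 ± 0.166 log2 units in cells, against 4.34 ± 0.288 in whole-embryo nuclei, with overlap (SD, n = 3 each).

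**Figure D3:**
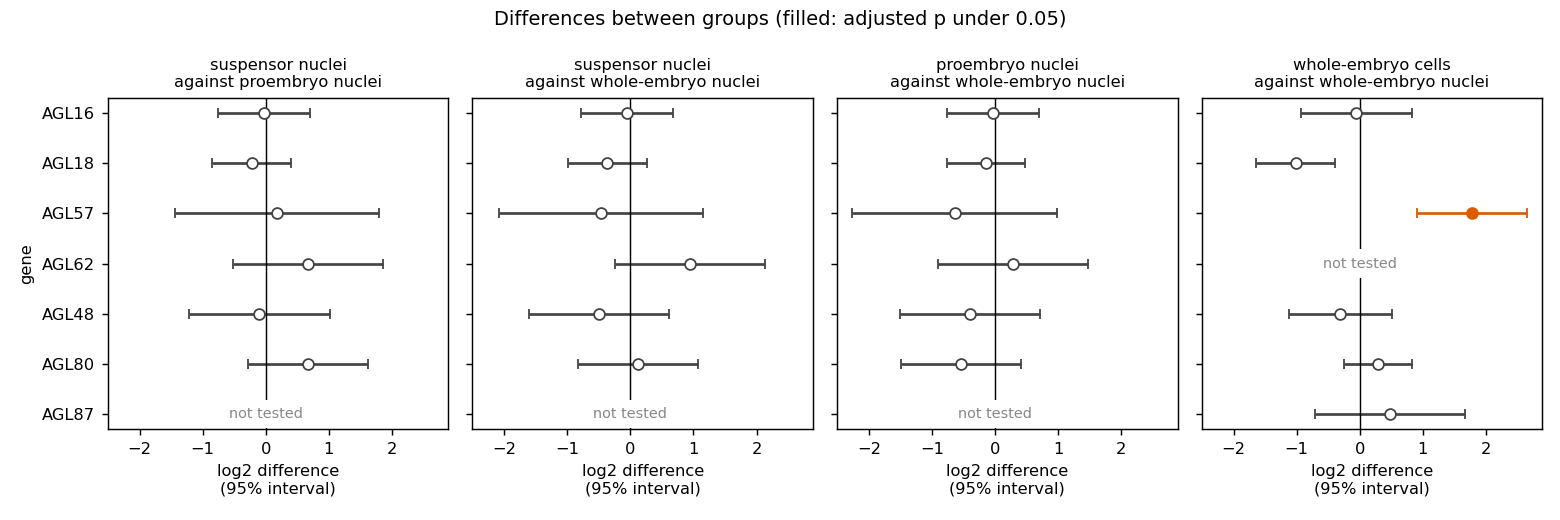
Log2 difference of each gene in the 4 comparisons, the group named first minus the group named after it, with its 95% interval from limma; filled symbols are past an adjusted p of 0.05 and genes left out by the filter are marked as not tested. AGL57 in cells against nuclei (1.78) is the 1 filled symbol, and the interval of AGL18 there (-1.64 to -0.39) also lies on one side of 0.

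**Figure D4:**
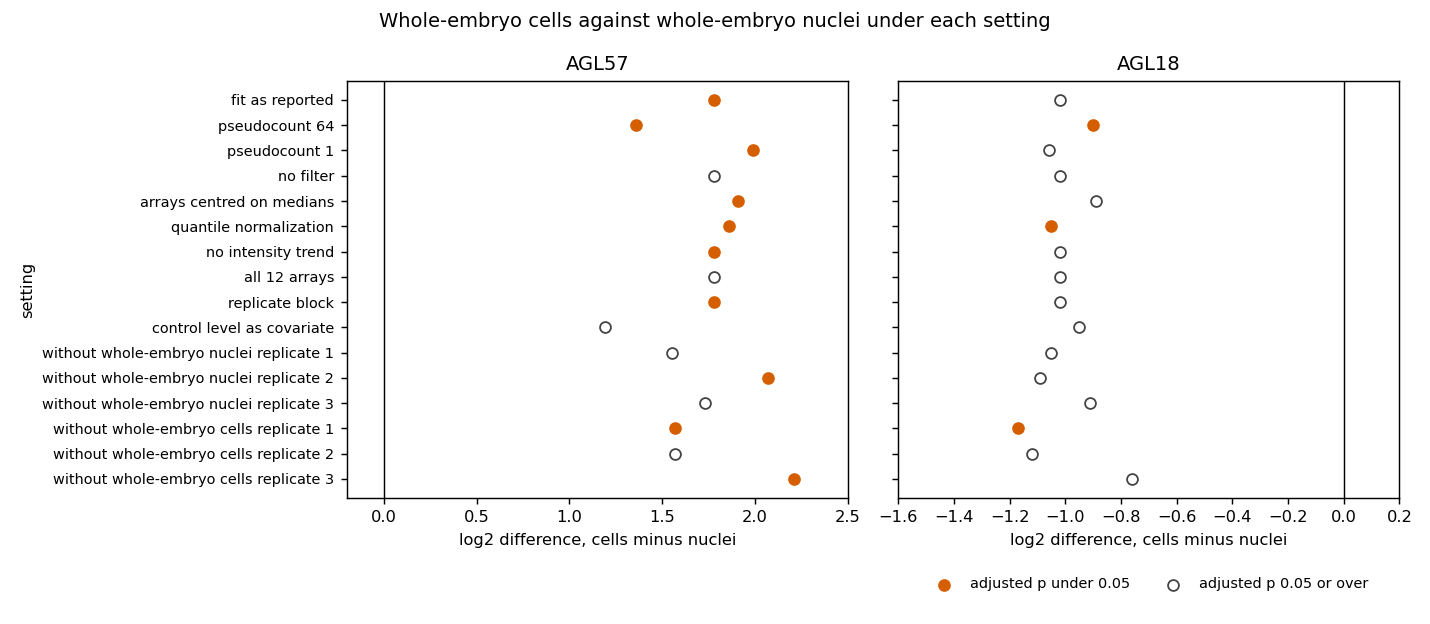
Log2 difference of AGL57 and AGL18 between whole-embryo cells and whole-embryo nuclei under each processing setting and without each array; filled symbols are past an adjusted p of 0.05. AGL57 lies between 1.19 and 2.21 and AGL18 between -1.17 and -0.76, while both cross the threshold depending on the setting.

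Markers of the tissues around the embryo were measured on the same arrays. Of 14 endosperm and central cell markers listed, 5 have a probe set of their own here, AGL62 and AGL80 among them. The other 3, AGL61, the female gametophyte gene DD46 and the receptor kinase gene IKU2, which sets endosperm and seed size, were above the array median on 3, 1 and 1 of 12 arrays. Their summed intensity was 59 to 344.5 in suspensor nuclei, 107 to 174.1 in proembryo nuclei, 56.3 to 110.5 in whole-embryo cells and 66.3 to 181.3 in whole-embryo nuclei, so the groups overlapped. AGL61, the partner of AGL80, had 7.2, 18.9 and 83.8 intensity units in suspensor nuclei, 9, 96.8 and 75.1 in proembryo nuclei, 24.9, 10.6 and 75.4 in whole-embryo cells, and 34.6, 55.6 and 98.9 in whole-embryo nuclei.

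Of 17 seed coat and ovule markers, 2 have a probe set of their own. BAN, an enzyme of tannin synthesis in the seed coat, was above the array median on 12 of 12 arrays, with 7828.2, 11448.7 and 9066.8 intensity units in suspensor nuclei, 7835.2, 4434.7 and 6931.8 in proembryo nuclei, 16697.2, 14379.8 and 4780 in whole-embryo cells, and 6403, 7493.4 and 7347.8 in whole-embryo nuclei. INO, a regulator of the outer integument of the ovule, was above it on 11 arrays, with 87.8, 185.4 and 219.3 in suspensor nuclei, 212.9, 231.7 and 155.2 in proembryo nuclei, 143.4, 54.1 and 88.5 in whole-embryo cells, and 142.7, 119.8 and 214.4 in whole-embryo nuclei. The summed intensity of both was 7916 to 11634.1 in suspensor nuclei, 4666.3 to 8048.1 in proembryo nuclei, 4868.5 to 16840.6 in whole-embryo cells and 6545.8 to 7613.2 in whole-embryo nuclei. The part of RNA from the seed coat, or from the endosperm, in the levels of the 7 genes was not tested. Of 6 suspensor markers 0 could be matched to a probe set of their own in the annotation used, which leaves 8730 of 22746 probe sets unnamed, so the suspensor label was not checked against them. All markers were found by symbol alone, and whether a locus so found, such as AT3G22480 for PDF2, is the marker meant was not checked. Of 9 proembryo markers 2 were matched, ROXY1 and YUC4, whose difference was already known when they were listed. Both fell in suspensor against proembryo nuclei, by 1.64 log2 units (limma adjusted p = 0.0199) and by 1.15 (limma adjusted p = 0.0321). In cells against nuclei YUC4 fell by 1.10 (limma adjusted p = 0.0339) and ROXY1 stood at 0.13 (limma adjusted p = 0.815); their part in the AGL57 difference there was not tested.

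**Figure D5:**
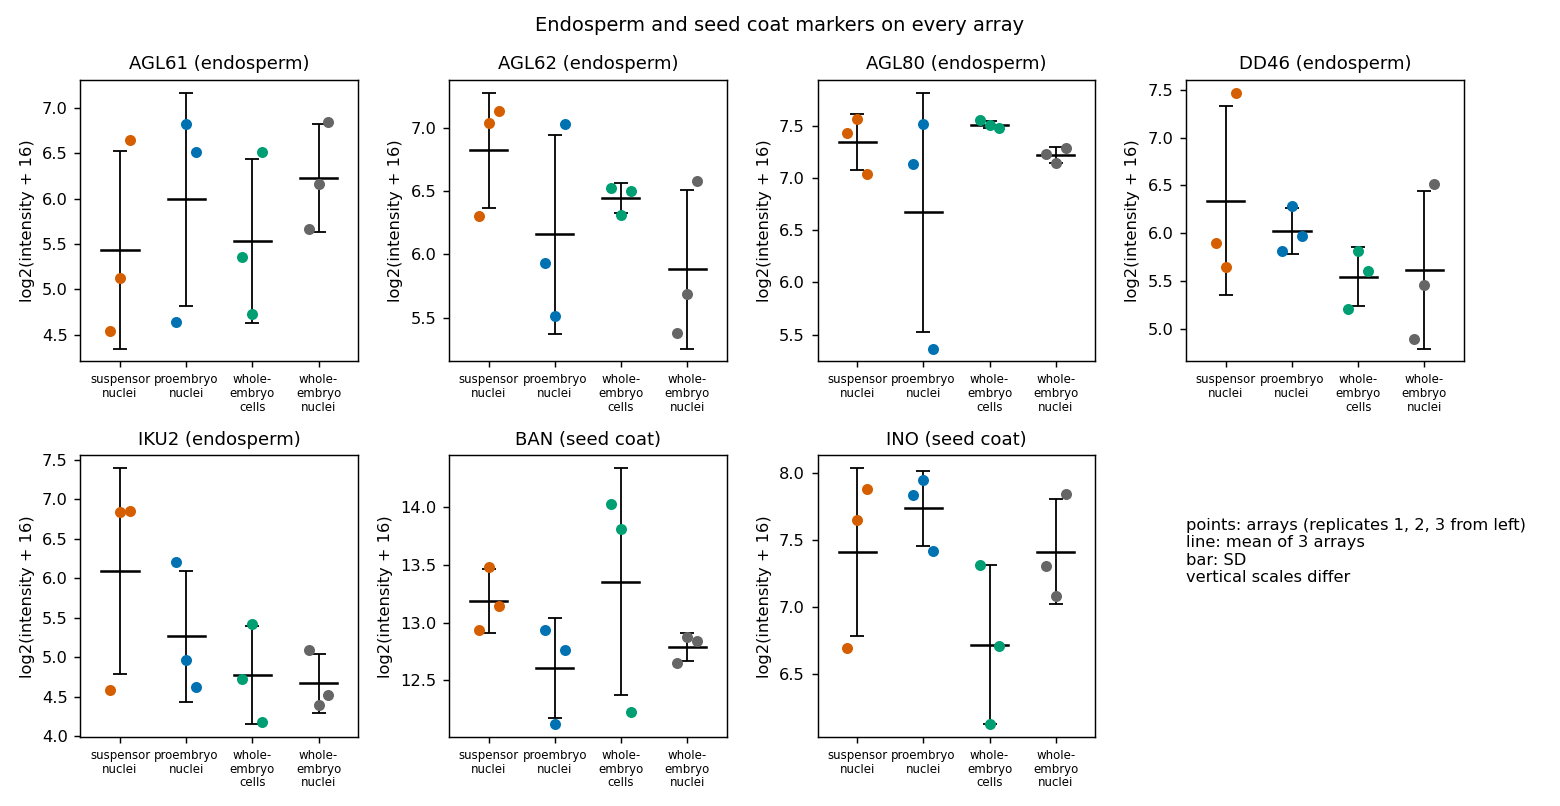
Level of the 5 measured endosperm and 2 measured seed coat markers as log2(intensity + 16), in 4 groups of 3 arrays; points are arrays, lines are means and bars are SD, and vertical scales differ between panels. BAN lay between 4434.7 and 16697.2 intensity units over the 12 arrays, while AGL61, DD46 and IKU2 scattered within groups as widely as between them.

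Genes that act with these 7 were counted in the same fits. Of 94 other MADS-box entries listed by symbol, where SEP1 and SEP2 each name more than 1 locus, 33 have a probe set of their own here. The 33 thus stand for a part of the family. Among them 1, AGL26, passed the filter in each comparison. AGL26 was past the threshold in 0 comparisons. Its 2 probe sets differed in level, with a median of 227.4 intensity units for the brighter, which was tested, and 2.9 for the other. That the tested probe set measures a MADS-box gene rests on its symbol alone and was not checked. In suspensor against proembryo nuclei AGL26 stood at -1.54 log2 units (SE 0.492, limma adjusted p = 0.117), with suspensor replicate 3 at 13.7 intensity units. Of the Polycomb and imprinting regulators of the central cell and endosperm, 2 of 20 were measured, and 0 were past the threshold in any comparison. DME, the DNA demethylase that activates maternal alleles in the central cell, stood at 0.75 in suspensor against proembryo nuclei (SE 0.378, limma adjusted p = 0.344), and ADM, measured in the fit of cells and nuclei, at 0.49 in cells against nuclei (SE 0.485, limma adjusted p = 0.578).

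Of 22 flowering time genes, 4 were measured and 3 passed the filter, with 0 past the threshold in the 4 comparisons. FY, of the polyadenylation machinery, stood at -0.82 in suspensor against proembryo nuclei (SE 0.261, limma adjusted p = 0.116), at -0.87 in suspensor against whole-embryo nuclei (limma adjusted p = 0.112) and at -0.61 in cells against nuclei (limma adjusted p = 0.207). LD, a homeodomain protein of the autonomous pathway, stood at -0.65 in suspensor against whole-embryo nuclei (limma adjusted p = 0.323), and GI, of the circadian clock, at -0.73 in cells against nuclei (limma adjusted p = 0.196). The median of the 3 was -0.07 in suspensor against proembryo nuclei, -0.65 in suspensor against whole-embryo nuclei, -0.32 in proembryo against whole-embryo nuclei and -0.61 in cells against nuclei, where the medians over all probe sets tested were 0.01, -0.01, -0.01 and 0.01 in the same order. Of the embryo identity genes linked to AGL15 and AGL18, BBM and IAA30 were measured, of 13. BBM, which promotes embryo identity, stood at -1.05 in suspensor against proembryo nuclei (SE 0.302, limma adjusted p = 0.0815) and at 0.74 in cells against nuclei (SE 0.391, limma adjusted p = 0.273), and IAA30 did not pass the filter.

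The likeness of other genes' profiles to each of the 7 was measured as the root mean square difference of log2 levels over the 12 arrays, each gene centred on its own mean, among 1029 named genes. The nearest profiles were CCS, ATGRIP and PAC for AGL16 (0.237 to 0.293 log2 units, where the median gene stood at 0.624) and ATN1, SP1L3 and APG8H for AGL18 (0.282 to 0.298, median 0.687). For AGL62 they were TBL30, PRA1.A1 and PEX4 (0.275 to 0.347, median 0.744), and for AGL80 they were KICP-02, SWEET7 and UBP19 (0.326 to 0.348, median 0.746). For AGL48 they were UPF3, CXE16 and PSD (0.395 to 0.418, median 0.731), and for AGL87 they were GFAT, HCT and SPP (0.46 to 0.498, median 0.853). For AGL57 they were NOL, scpl47 and ATSLY1 (0.73 to 0.841, median 1.34). The distance grows with a gene's own variation: a gene with no variation would lie 0.424 from AGL16 and 1.27 from AGL57.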

How the data were processed

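Each probe set has 1 linear intensity per array, as deposited by the authors. MAS5 and affy 1.32.1 are the tools named, per the submitters' processing notes, without their roles; background correction and summarisation are not stated. After trimming 2% at each end the mean was 200.02 on all arrays, and this scaling was left as it was. Genes were assigned from the platform annotation with symbols updated by gene identifier (TAIR10.1 table, names only): 13513 of 22746 probe sets had 1 gene, 13436 of these matched, 503 had several and 8730 are unnamed here. Tests used log2(intensity + 16), which understates changes of dim genes. A filter kept probe sets above their array's median on 3 or more arrays of a fit. Testing was by limma 3.58.1 (R 4.3.3; lmFit and eBayes, variance trend on intensity, Benjamini-Hochberg over the probe sets kept, threshold 0.05), on 9 arrays for the comparisons among nuclei, 6 for cells against nuclei and 12 for the F test, after a run on simulated data. In that run 4.255% to 13.04% of changes of 1 log2 unit were recovered over the 4 comparisons. Of changes of 2 log2 units 64.58% to 77.78% were recovered. A gene not past the threshold may thus still differ. Tables and plots were made with Python 3.11.15, pandas 2.3.3 and matplotlib 3.10.9. A listed gene with several probe sets was represented by the brightest. All 7 genes are named, list genes up to 4 each by smallest p, and likeness gives the 3 nearest; further single genes were named after their values were seen. The members and lists were chosen with earlier results of these data known. Alternatives were the pseudocount, filter, centring, quantile normalization, trend, arrays in the fit, control level, replicate block and single arrays left out. Arrays of 1 group correlated at 0.843 to 0.933, and the highest correlation over all pairs, between arrays of different groups, was 0.95, so none copied another. The number of arrays limits the precision of every value. Sequences were not used here.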

Additional observations from a re-analysis of the deposited data

How the results depend on the processing

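Over 404 values of single genes under other settings or without 1 array, 369 kept their direction and side of the threshold. In the comparisons among nuclei 0 of these genes passed under any setting tried, among the genes that the filter kept there. AGL87 was left out of the main fits. With only the arrays compared, suspensor against whole-embryo nuclei kept AGL16, AGL18 and AGL80 alone. In cells against nuclei the count of 1 gene was 2 with a pseudocount of 64 and after quantile normalization, 0 without the filter, with all 12 arrays and with a control level covariate, and 0 to 2 without single arrays. In the F test it was 0 with a pseudocount of 1, without the filter and without the intensity trend, and 0 to 1 without single arrays. The cause was not tested. Direction turned in 26 values, 0 of them past the threshold. With the control level in the model AGL57 stood at -0.09 in suspensor against proembryo nuclei, AGL16 at 0 in proembryo against whole-embryo nuclei, and, in cells against nuclei, AGL16 at 0.68, AGL48 at 0.05 and AGL87 at -0.37; centring arrays on their medians put AGL16 at 0.08 there. Without single arrays, suspensor against proembryo nuclei gave -0.14 to 0.17 for AGL16, -0.49 to 0.11 for AGL18, -0.47 to 0.60 for AGL57 and -0.70 to 0.36 for AGL48. Suspensor against whole-embryo nuclei gave -0.36 to 0.42 for AGL16. Proembryo against whole-embryo nuclei gave -0.33 to 0.45 for AGL16, -0.47 to 0.13 for AGL18, -0.87 to 0 for AGL57, -0.86 to 0.20 for AGL48 and -0.97 to 0.10 for AGL80. Cells against nuclei gave -0.36 to 0.43 for AGL16 and -0.04 to 0.72 for AGL87. Over all probe sets, 260 passed in suspensor against proembryo nuclei (17 to 350 under other settings, 85 to 421 without single arrays), 199 in suspensor against whole-embryo nuclei (9 to 232 and 27 to 309), 0 in proembryo against whole-embryo nuclei (0 under other settings, up to 1 without single arrays), 803 in cells against nuclei (8 to 947 and 205 to 1287) and 1569 in the F test (1085 to 1725 and 725 to 1766). No pairing of arrays by equal replicate number was seen in the values, where deviations correlated at -0.14 to 0.106. In 2 of 12 pairs (3 per comparison, with arrays shared between comparisons) the own number matched best. The labels do not say whether equal numbers share a harvest or sort, and these correlations cannot decide it. With the replicate number as a block AGL57 had 1.78 in cells against nuclei (limma adjusted p = 0.0161), and the counts of these genes stayed at 0 among nuclei and 1 in cells against nuclei. Group medians in place of means left the number of overlapping neighbours as it was for all 7 genes.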

Other observations

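AGL96, another MADS-box gene, named after its values were seen, had 120.6, 169.6 and 68 intensity units in whole-embryo cells. In whole-embryo nuclei it had 50.9, 60.9 and 14.9, with no overlap. It was above the array median on 2 of 12 arrays and was left out by the filter, so it was not tested. Among the other MADS-box genes left out, AGL59 and AGL91 were also higher in cells without overlap, and AGL30, AGL41 and AGL89 were lower. Over all probe sets tested in that comparison the groups did not overlap for 28.6%. A further 6 MADS-box genes are measured here only by probe sets shared with another gene, and no level is given for them.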
